A study of Mus musculus with 4 samples.

Results

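Transcript levels of 6 genes were followed across the states of murine splenic B cells sorted as germinal center (GC) cells. The genes are the exchange factors Dock8, Dock2, Dock10, Dock11 and Dock9 and the DOCK8 regulator Lrch1, chosen by name, 6 of the 32285 genes in both count matrices. Each of the 2 mRNA libraries pooled cells of 6 recipient mice, 3 per group, on day 8 after immunization, and hashtag antibodies, read in 2 further libraries, marked the mouse of origin. Transcripts were counted as unique molecular identifiers (UMIs), and every level below is in CPM, the usual scaling of a gene's UMIs by all UMIs of the summed cells.

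The recipients were CD45.1+ WT mice of 8 to 12 weeks. They were given B cells of the MD4 line, whose B cell receptor is a transgene specific for hen egg lysozyme (HEL), and sheep red blood cells coupled to HEL (SRBC-HEL). One library holds HEL+ CD95+ CD45.2+ cells, all with the BCL2.Tg transgene, which were Dock8 wt/wt in 3 mice and Dock8 cpm/cpm in the other 3. The other library holds HEL+ CD95+ CD45.1+ cells, which were Dock8 wt/wt in all 6 mice and served as the competitor in each. Sort, transgene and library therefore went together and cannot be told apart. The cpm allele arose by ENU mutagenesis and removes DOCK8 function, and the 3′ counts used here measure the transcript without reading that mutation.

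DOCK proteins are guanine nucleotide exchange factors that switch on the small GTPases RAC and CDC42, which in turn direct actin assembly, cell shape and migration. In lymphocytes DOCK2 acts on RAC downstream of chemokine and antigen receptors, DOCK8 acts on CDC42 and is needed for lasting humoral immunity, and DOCK9, DOCK10 and DOCK11 form the zizimin group, with CDC42 as their common target and, for DOCK10, RAC as well. LRCH1 is a leucine-rich repeat protein that binds DOCK8 and restrains its activation of CDC42. Dock10 is also known as a gene that interleukin-4 induces in B cells.

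The genes lie on 5 chromosomes. In GRCm38 coordinates all 6 are annotated as protein coding, Dock8 (ENSMUSG00000052085) at chr19:24999534-25202432, Dock2 (ENSMUSG00000020143) at chr11:34226815-34783892, Dock10 (ENSMUSG00000038608) at chr1:80501073-80758527, Dock11 (ENSMUSG00000031093) at chrX:35888832-36076562, Dock9 (ENSMUSG00000025558) at chr14:121542046-121797837 and Lrch1 (ENSMUSG00000068015) at chr14:74754675-74947876. Dock8 and Dock11 are on the plus strand and the other 4 on the minus strand. RefSeq start sites (GRCm38.p6) gave 9 promoter windows of 250 bases before to 50 bases after a start, with 1 window each for Dock8, Dock2, Dock11 and Lrch1, 2 for Dock10 and 3 for Dock9. The windows of Dock8 and Dock2 are printed because both genes were lowest in plasma cells and next lowest in the DZ while their promoters differ in base composition. Capitals mark the GC box in Dock8, spelled GGGCGG or, when it lies on the other strand, CCGCCC, and the ETS core in Dock2, spelled CCGGAAG or, when it lies on the other strand, CTTCCGG.
Dock8, chr19:24999279-24999578, plus strand: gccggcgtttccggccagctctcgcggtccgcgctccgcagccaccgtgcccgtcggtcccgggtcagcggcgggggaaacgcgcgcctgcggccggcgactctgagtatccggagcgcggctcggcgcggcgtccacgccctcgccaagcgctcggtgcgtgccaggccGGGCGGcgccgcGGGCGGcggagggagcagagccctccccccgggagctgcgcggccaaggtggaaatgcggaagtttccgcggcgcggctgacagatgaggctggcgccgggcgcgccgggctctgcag
Dock2, chr11:34783856-34784155, minus strand: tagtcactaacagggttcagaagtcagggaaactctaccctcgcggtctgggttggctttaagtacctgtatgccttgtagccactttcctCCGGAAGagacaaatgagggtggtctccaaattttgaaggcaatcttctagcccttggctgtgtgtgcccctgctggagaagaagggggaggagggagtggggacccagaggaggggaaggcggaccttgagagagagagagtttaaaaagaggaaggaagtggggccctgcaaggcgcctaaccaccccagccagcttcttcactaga
The Dock8 window was 78.0% G and C with 52 CG dinucleotides and held 2 GC boxes and no ETS core, and the Dock2 window was 54.3% G and C with 5 CG dinucleotides and held 1 ETS core and no GC box, so the motifs did not overlap. Over all 32851 windows the median was 52.7% and 7 CG dinucleotides, 35.7% held the GC box and 8.86% the ETS core. Windows of Dock11 and Lrch1 were also rich in G and C, at 70.3% and 60.0%. Those of Dock10 stood at 70.0% and 43.7% and those of Dock9 between 45.3% and 79.0%, and 3′ counts do not tell which start a transcript used. The matches are letters in a window and not binding sites.

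Cells were kept when a hashtag named 1 mouse, which left 6488 CD45.2+ and 3204 CD45.1+ cells out of 24241 and 5232 barcodes. Of the CD45.2+ barcodes that passed the filter on genes and mitochondrial counts, 9028 had no hashtag counts and 7951 were called hashtag doublets. The kept CD45.2+ cells came mostly from wt/wt mice, with 6286 wt/wt against 202 cpm/cpm cells, and the 12 pools of 1 mouse and sort held between 342465 and 18036775 UMIs. The libraries shared 38 barcodes, 6 of them among kept cells. Over every barcode, hashtags aside, Dock8 stood at 99.7 in the CD45.2+ and 78.4 in the CD45.1+ matrix, with a UMI in 49.5% and 39.5% of barcodes. In the 9028 CD45.2+ barcodes without a hashtag it stood at 103 against 94.3 in the kept cells.

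B cell states were named by marker lists from clusters built without the 6 genes and the pathway lists described below. They were plasma cells, dark zone (DZ), light zone (LZ), naive-like and memory-like cells. In plasma cells the summed level of the plasma list lay between 61491 and 70948 over the 9 mouse pools with such cells and reached at most 4850 in the other states. The DZ list summed to 13976 to 19162 in the DZ and the LZ list to 7153 to 11394 in the LZ, and the T cell list to at most 158 in the LZ. The LZ list also reached 6671 in the DZ and 6338 in naive-like cells. In the LZ the naive-like list had a median of 2788 but reached 6566. The naive-like list summed to 7971 to 10950 in naive-like and to 6103 to 9189 in memory-like cells, with overlap. The memory-like list summed to 9070 to 14427 in memory-like and to 5745 to 7176 in naive-like cells. At the alternative resolution of 0.6 no cluster was named memory-like, so the split of these states is less firm. Since the states were built from other genes of the same cells, a test between states is not independent of the clustering. In summed cells, fewer cells with a transcript and less transcript per cell cannot be told apart except through the shares of cells given further on.

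Dock8 was compared first between the groups of mice, as the mutated gene. In LZ and DZ cells of the CD45.2+ sort, Dock8 stood at 98.1, 113 and 96.9 in the 3 wt/wt mice and at 99.2, 86.2 and 64.7 in the 3 cpm/cpm mice, the latter from 25, 16 and 24 UMIs. The groups overlapped, with cpm/cpm mouse 1 inside the wt/wt range and cpm/cpm mice 2 and 3 below it. The difference was a log2 fold change of -0.43 ± 0.194 (SE, cpm/cpm minus wt/wt; edgeR quasi-likelihood test, unadjusted p = 0.0350, Benjamini-Hochberg adjusted p = 0.744), so Dock8 was not called at an adjusted 0.05. It lay between -0.61 and -0.24 over every alternative run. The competitor CD45.1+ cells are wt/wt throughout, and there Dock8 stood at 98.9, 114 and 122 in mice with wt/wt CD45.2+ cells and at 128, 114 and 108 in mice with cpm/cpm CD45.2+ cells, a difference of 0.05. The difference between the sorts of these differences was -0.44 ± 0.215 (adjusted p = 0.816).

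None of the 6 genes was called between cpm/cpm and wt/wt CD45.2+ cells, against 0.0631% of all genes tested (6 of 9505, while 584 had an unadjusted p under 0.05 and DESeq2 called 18). None was called between the groups of mice in CD45.1+ cells, against 0% of 8187 genes (323 had an unadjusted p under 0.05 and DESeq2 called 1), nor in the difference between the sorts, against 0.0231%. The other members lay at 0.12 for Dock2 (101.8, 118.5 and 110.6 in wt/wt against 163, 129 and 99.7 in cpm/cpm mice), 0.07 for Dock10, -0.14 for Dock11, 0.12 for Dock9 and -0.27 for Lrch1, with adjusted p of 0.939 or more. These cpm/cpm values rest on 96 LZ and DZ cells, which limits what could be detected. In the DZ alone Lrch1 stood at 15.9, 22.0 and 11.7 in cpm/cpm mice, from 2, 3 and 3 UMIs, against 31.3, 33.2 and 30.6 in wt/wt mice, without overlap and not called (-1.12, adjusted p = 0.883). It was -0.27 with hashtag values over each cell and -0.72 with the 3-fold rule, the groups overlapping under both and neither called.

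The labels of the hashtags were also set against sex-linked transcripts. A note of the study gives the WT cells as male and the CPM cells as female in origin. In LZ and DZ cells Xist, the transcript of the silenced X chromosome, stood at 1378, 1625 and 1331 in the cells labelled wt/wt and at 353, 582 and 463 in those labelled cpm/cpm, and at 1359 to 1686 in CD45.1+ cells. The Y-linked Ddx3y stood at 1.52 to 2.51, at 43.1 to 55.5 and at 0 in the same order. A UMI of a Y-linked gene was found in 4.01% of 2020 wt/wt and in 53.1% of 96 cpm/cpm cells, at median depths of 8078 and 7279 UMIs. Y-linked transcripts thus went with the label cpm/cpm, the reverse of the note, while Xist in the cells of that label was lower than in the others but far above 0, so both patterns were present under it. The share of cells of the other group among them was not tested, and it bears on the size of each difference between the groups. Whether the labels or the note are reversed cannot be told apart from these values. With reversed labels each cpm/cpm minus wt/wt difference would change sign and the CD45.2+ cells in the comparisons of states would be cpm/cpm. The directions given here are those of the labels, under which 202 of 6488 kept CD45.2+ cells were cpm/cpm, and genotype and sex cannot be told apart in any of them.

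**Figure D1:**
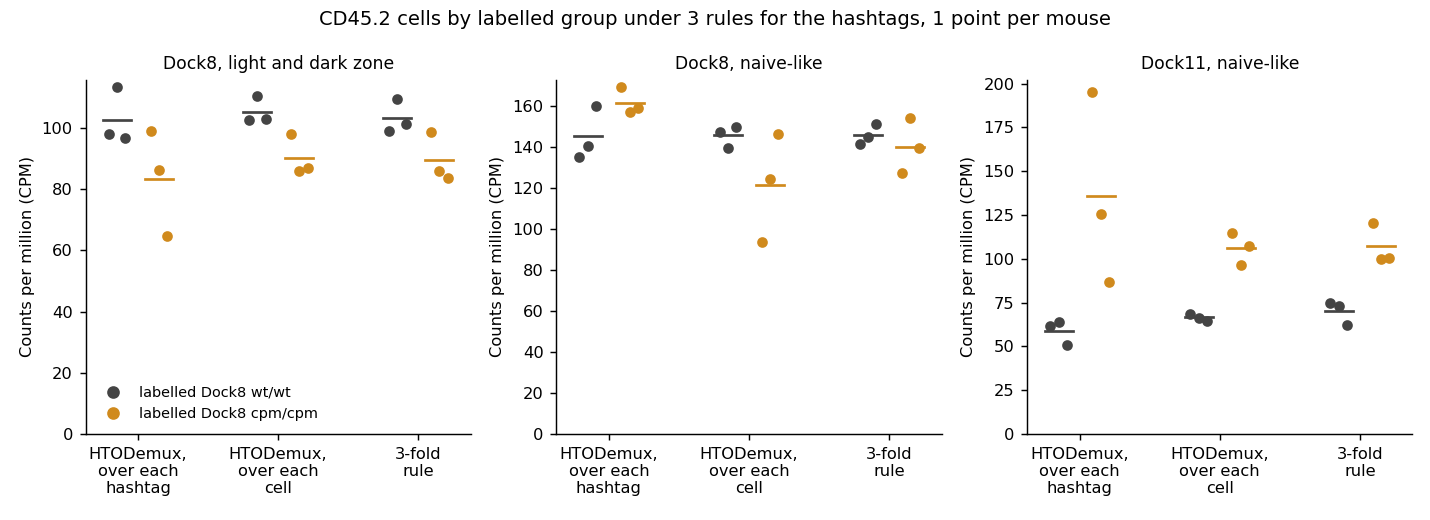
Levels (CPM, linear axis from 0) of Dock8 in LZ and DZ cells together, Dock8 in naive-like cells and Dock11 in naive-like cells of the CD45.2+ sort, 1 point per mouse and 1 line per group mean, under the 3 ways of assigning hashtags. Dock8 in LZ and DZ cells was lower on average in the cells labelled cpm/cpm under each rule, and Dock11 in naive-like cells was higher in all 3 cpm/cpm mice under each rule.

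Other rules of reading the hashtags gave more cpm/cpm cells in the CD45.2+ sort. Normalization of hashtag counts over each cell kept 883 cpm/cpm B cells and a 3-fold rule kept 860. In the CD45.1+ sort the first rule kept fewer B cells, 91 of cpm/cpm and 1404 of wt/wt mice, against 1316 and 1824 in the main setting. The 3-fold rule kept 2140 and 2267 there. Dock8 in CD45.2+ LZ and DZ cells then stood at 103, 111 and 103 against 98.1, 86.0 and 87.1, and at 98.9, 109.5 and 101.4 against 98.7, 86.0 and 83.9, so that under both rules no cpm/cpm mouse reached the lowest wt/wt mouse. By state, the difference was -0.36 in the LZ and -0.25 in the DZ under the first of these rules and -0.39 and -0.22 under the 3-fold rule, none called (adjusted p = 0.473 and 0.544 in the LZ). In naive-like cells Dock8 stood at 135.0, 141 and 160.0 in wt/wt and at 169, 157 and 159 in cpm/cpm mice, the latter from 13, 10 and 22 UMIs, a difference of 0.06 that turned to -0.23 with hashtag values over each cell and -0.07 with the 3-fold rule, none called.

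Dock11, which is X-linked, was the member with the widest gap between the groups in naive-like cells. It stood at 61.6, 63.8 and 51.0 in wt/wt and at 195.0, 126 and 86.7 in cpm/cpm mice, without overlap, from 15, 8 and 12 UMIs in the latter (0.93 ± 0.291, adjusted p = 0.192, against 0.160% of genes called). With hashtag values over each cell it stood at 68.6, 66.3 and 64.6 against 115, 96.3 and 107.6 and was called (0.65 ± 0.150, adjusted p = 0.0251, against 0.495% of genes), and with the 3-fold rule at 74.9, 72.9 and 62.4 against 121, 100.04 and 100.42 (0.52, adjusted p = 0.0963, against 0.655% of genes). Under the 3-fold rule the naive-like state also took in a cluster of 301 cells led by Gm42418, with a median of 1842 UMIs, whose counterpart stayed unnamed otherwise. In CD45.1+ naive-like cells of the same mice Dock11 ranged from 62.0 to 86.0 beside wt/wt and from 20.4 to 127 beside cpm/cpm cells. Y-linked UMIs were found in 2.95% of 948 wt/wt and 67.3% of 49 cpm/cpm naive-like CD45.2+ cells, and the part of sex in the Dock11 difference cannot be told apart from genotype. Chosen after its values were seen, this state was fitted beside the planned sum of LZ and DZ cells.

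States were compared in the 3 wt/wt mice of the CD45.2+ sort and in all 6 mice of the CD45.1+ sort, each state against the LZ with the mouse as a block. The outcome was that 5 of the 6 genes were lower in plasma cells than in the LZ in CD45.2+ cells and all 5 tested were lower in CD45.1+ cells, where Dock9 had too few UMIs to be tested. These counts stand against 23.8% and 30.9% of all genes tested called lower in plasma cells. In the DZ 4 of 6 and 5 of 5 were lower, against 21.1% and 19.1%. In naive-like cells Dock2 was higher in both sorts and Dock10 in CD45.1+ cells, 1 of 6 and 2 of 5, against 11.8% and 9.96% of genes called higher. In memory-like cells the same held, 1 of 6 and 2 of 5, against 13.2% and 17.0%, and Lrch1 was lower in CD45.1+ cells, 1 of 5 against 17.0% of genes called lower. The median change of the 6 genes was -0.96 (log2) in plasma cells, -0.41 in the DZ, 0.18 in naive-like and -0.07 in memory-like CD45.2+ cells, with medians over all genes of -0.01, -0.05, 0.00 and 0.00.

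The scale matters for plasma cells, in which immunoglobulin transcripts took 33.1% of CD45.2+ and 33.6% of CD45.1+ UMIs, against 2.43% to 3.53% in the other CD45.2+ states. The fold changes below use TMM factors, which set the median gene near 0. Without them the median of all genes in plasma cells moved to -0.69 and -0.90 in the CD45.2+ and CD45.1+ sorts and in memory-like cells to -0.24 and -0.39, and the share of calls that were lower rose from 48.5% and 48.1% to 83.9% and 82.5% in plasma cells and from 47.7% and 50% to 78.6% and 79.3% in memory-like cells. The fold changes are therefore relative to the typical gene, while the levels in CPM are relative to all UMIs.

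**Figure D2:**
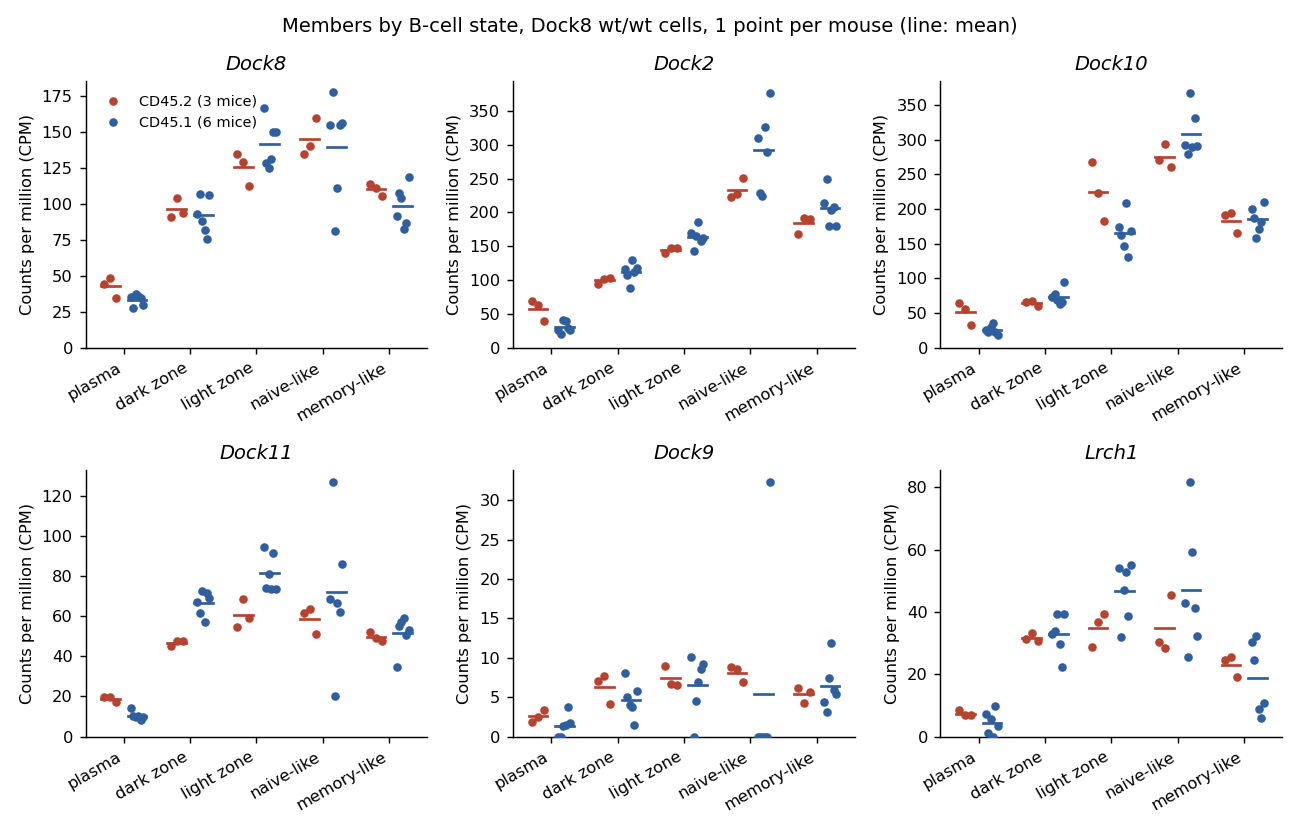
Levels of the 6 genes (CPM, 1 panel per gene, linear axis from 0) in plasma, DZ, LZ, naive-like and memory-like cells, with the 3 wt/wt mice of the CD45.2+ sort in red, the 6 mice of the CD45.1+ sort in blue and a line at each mean. Plasma cells hold the lowest mean of every gene in both sorts, and Dock2 and Dock10 have their highest mean in naive-like cells.

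Dock8 was lowest in plasma cells, where the 3 wt/wt mice of the CD45.2+ sort stood at 44.7, 48.6 and 34.7. It stood at 90.6, 104.4 and 93.5 in the DZ and at 135, 129 and 112 in the LZ. Naive-like cells stood at 135.0, 141 and 160.0 and memory-like cells at 114, 111 and 106. From the top the order was naive-like (145 ± 13.1, SD, n = 3), LZ (125 ± 11.7), memory-like (110.3 ± 4.01), DZ (96.2 ± 7.25) and plasma cells (42.7 ± 7.20). The LZ and memory-like ranges overlapped, naive-like and LZ cells touched without overlap and were not called apart (0.17, adjusted p = 0.297, but 0.23 and adjusted p = 0.0387 with hashtag values over each cell), and plasma cells stood apart from every other state. Against the LZ, Dock8 was lower in plasma cells (-0.88 ± 0.118, adjusted p = 2.1e-07) and in the DZ (-0.40 ± 0.109, adjusted p = 0.00303). The DZ call was lost without wt/wt mouse 1 (-0.29, adjusted p = 0.130).

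In CD45.1+ cells Dock8 ran from 28.0 through a median of 35.2 to 37.1 in plasma cells, from 75.8 through 90.7 to 107 in the DZ and from 125 through 140.3 to 167 in the LZ. Naive-like cells spread from 81.5 to 178 and memory-like cells from 82.9 to 119. LZ (142 ± 16.4, n = 6) and naive-like cells (139 ± 35.7) overlapped, as did memory-like (98.5 ± 13.8) and DZ cells (92.0 ± 12.7). The lowest LZ mouse lay above the highest DZ mouse and above the highest memory-like mouse. Dock8 was lower in plasma cells (-1.24 ± 0.128, adjusted p = 7.8e-14) and in the DZ (-0.62, adjusted p = 1.5e-06), and not called in naive-like (0.02) or memory-like cells (-0.18, adjusted p = 0.262). Without TMM the memory-like change was called lower for Dock8 (-0.49, adjusted p = 5.0e-04) and Dock11 (-0.63, adjusted p = 3.7e-04). Without TMM the plasma cell change was -1.55 in CD45.2+ and -2.15 in CD45.1+ cells, and with immunoglobulin genes left out of the counts it was -0.88 and -1.27. With immunoglobulin UMIs left out of the total, the plasma cell level was 63.7 and 50.7.

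Dock2, the RAC exchange factor, took a separate range in every state of the CD45.2+ sort. In CD45.2+ wt/wt mice it stood at 68.6, 62.6 and 40.4 in plasma cells, at 93.9, 102.4 and 102.7 in the DZ and at 141, 147 and 147 in the LZ. It stood at 168, 192 and 191 in memory-like and at 223, 228 and 251 in naive-like cells. No neighbours in this order overlapped. Against the LZ, Dock2 was lower in plasma cells (-0.68 ± 0.129, adjusted p = 5.1e-05) and in the DZ (-0.56 ± 0.122, adjusted p = 3.8e-04) and higher in memory-like (0.57 ± 0.120, adjusted p = 4.8e-04) and naive-like cells (0.67 ± 0.124, adjusted p = 1.3e-04). The CD45.1+ sort had the same order of means, 30.5 ± 8.15 in plasma cells, 112 ± 13.9 in the DZ, 164 ± 14.1 in the LZ, 206 ± 25.4 in memory-like and 292 ± 58.7 in naive-like cells (n = 6). There the ranges of the LZ (143 to 186), memory-like (180.3 to 249) and naive-like cells (224 to 376) overlapped from each to the next, and all 4 changes against the LZ were called (-1.56, -0.55, 0.60 and 0.96).

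Dock10 separated the zones of the GC more than any other member in CD45.2+ cells. It stood at 66.6, 66.8 and 60.9 in the DZ and at 268, 223 and 182 in the LZ of the 3 wt/wt mice. Plasma cells stood at 64.6, 55.8 and 33.5, overlapping the DZ, and naive-like cells at 270.1, 293 and 261. Memory-like cells stood at 191, 194 and 165, overlapping the LZ, which in turn overlapped naive-like cells. Against the LZ, Dock10 was lower in the DZ (-1.80 ± 0.117, adjusted p = 9.0e-14) and in plasma cells (-1.47 ± 0.121, adjusted p = 9.7e-12). The naive-like cells lay 0.28 above the LZ (adjusted p = 0.0660) and the memory-like cells 0.05 below it, neither called, and without wt/wt mouse 1 the naive-like difference was 0.49 and called.

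In CD45.1+ cells Dock10 ran from 63.1 through a median of 70.8 to 95.6 in the DZ and from 132 through 165 to 209 in the LZ. It was lower in plasma cells (26.3 ± 6.15, -1.86 ± 0.138, adjusted p = 2.4e-20) and in the DZ (-1.12, adjusted p = 8.4e-14). Naive-like (308 ± 33.8) and memory-like cells (185 ± 18.7) were higher than the LZ (165 ± 26.5) by 0.92 (adjusted p = 3.7e-07) and 0.49 (adjusted p = 2.2e-04). The memory-like call was lost with hashtag values over each cell (adjusted p = 0.0625) and without TMM (adjusted p = 0.163), and the memory-like and LZ ranges overlapped.

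The LZ held 2 clusters between which Dock10 differed. A cluster of 1558 cells led by Egr1, Cd83 and Rgs13 had Dock10 at 166 ± 31.5 (SD over wt/wt mice of the CD45.2+ sort, n = 3), and a cluster of 343 cells led by Il4i1, Mir155hg and Cfp had it at 310 ± 65.1. In CD45.1+ cells the values were 153 ± 29.2 (n = 6) and 334 ± 61.5 (n = 3). Lrch1 went the other way, with 44.3 ± 11.2 in the first and 22.0 ± 2.49 in the second CD45.2+ cluster, and Dock8 stood at 137 ± 23.2 and 114 ± 4.13. Ighd, a marker of the naive-like list, was among the 10 leading genes of the second cluster. That cluster made up 59.6%, 22.0% and 42.6% of LZ cells in wt/wt CD45.2+ mice and 2.43% to 12% in CD45.1+ cells. The LZ of the sorts thus differed in makeup, and the part of this in the LZ levels of Dock10 and Lrch1 was not tested. No test was made between clusters.

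**Figure D3:**
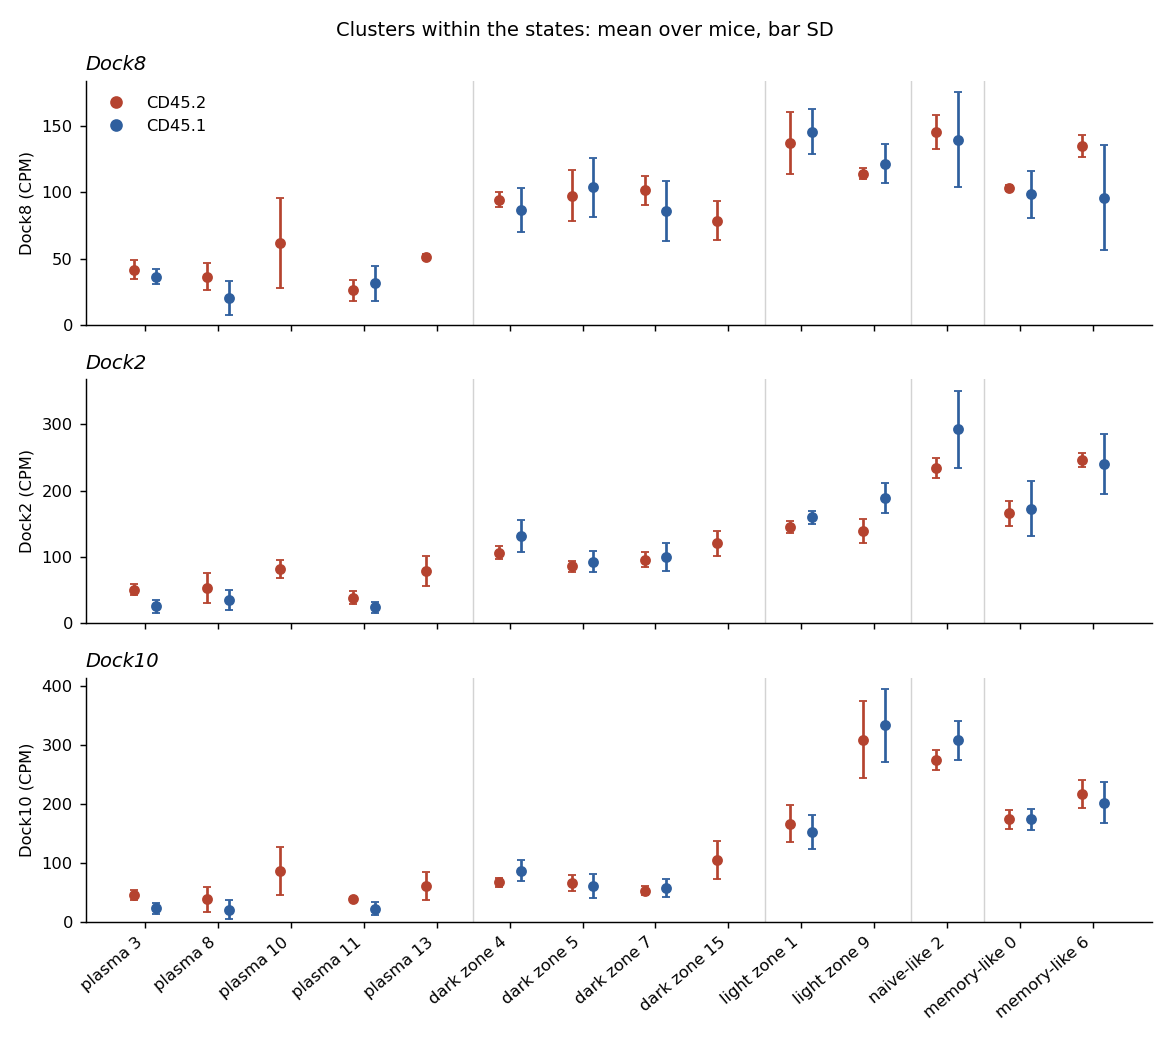
Levels of Dock8, Dock2 and Dock10 (CPM, linear axis from 0) in each cluster, as mean and SD over mice for the CD45.2+ wt/wt (red) and CD45.1+ (blue) cells, with clusters ordered by state. In the LZ, Dock10 is 166 and 310 in the 2 clusters of CD45.2+ cells.

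Memory-like cells also fell into 2 clusters. One of 1606 cells led by Plac8, Pcp4 and Tyrobp had Dock2 at 166 ± 18.5 and Dock8 at 103 ± 2.31 in CD45.2+ wt/wt mice. The other, of 529 cells led by S100a6 and Ahnak, had Dock2 at 246 ± 10.6 and Dock8 at 134 ± 8.24. In CD45.1+ cells Dock2 stood at 173 ± 41.2 and 240.2 ± 45.4 (n = 6), with overlapping ranges, and Dock8 at 98.2 ± 17.8 and 95.8 ± 39.3. Within the DZ of CD45.2+ wt/wt cells, mean Dock8 lay between 78.3 and 101 over 4 clusters that differ in cell cycle genes, and Dock2 between 86.0 and 121. Over 5 plasma cell clusters of the same cells mean Dock8 lay between 26.0 and 61.7.

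Dock11, the zizimin member on the X chromosome, was lowest in plasma cells of the CD45.2+ sort. It stood at 19.6, 19.6 and 17.1 in plasma cells, at 46.7 ± 1.39 in the DZ and at 54.4, 68.6 and 58.9 in the LZ. Naive-like (58.8 ± 6.84) and memory-like cells (49.7 ± 2.41) overlapped each other, the LZ overlapped the naive-like cells, and the DZ reached the lowest memory-like mouse. Against the LZ, Dock11 was lower in plasma cells (-1.05 ± 0.130, adjusted p = 5.1e-08) and in the DZ (-0.42 ± 0.114, adjusted p = 0.00303), the DZ call being lost without wt/wt mouse 2 (-0.35, adjusted p = 0.141) and without a filter on low counts (adjusted p = 0.0574).

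In CD45.1+ cells Dock11 stood at 10.4 ± 2.01 in plasma cells, 66.4 ± 6.05 in the DZ and 81.4 ± 9.56 in the LZ (n = 6). It was lower in plasma cells (-2.13 ± 0.177, adjusted p = 6.0e-18). The DZ lay below the LZ without overlap (highest DZ mouse 72.3, lowest LZ mouse 73.5) but passed the threshold only closely (-0.30, adjusted p = 0.0448) and was not called with hashtag values over each cell (adjusted p = 0.295), with DESeq2 (adjusted p = 0.0517) or without 5 of the 6 mice in turn. Naive-like cells ranged from 20.4 to 127.

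Dock9 was near the lower limit of these data. All CD45.2+ wt/wt states together held 34 UMIs in plasma cells, 90 in the DZ, 33 in the LZ, 46 in naive-like and 57 in memory-like cells, and its levels were 2.58 ± 0.788, 6.31 ± 1.96, 7.37 ± 1.33, 8.13 ± 1.07 and 5.37 ± 0.964 in that order. The DZ range overlapped those of LZ, naive-like and memory-like cells. The plasma cell level was the lowest in each mouse, yet the change against the LZ was not called (-0.74 ± 0.378, adjusted p = 0.105), and the DZ lay at -0.21 (adjusted p = 0.641). In CD45.1+ cells between 6 and 29 UMIs were counted per state over all 6 mice, too few for a test.

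Lrch1, the DOCK8 regulator, was lower in plasma cells than in the LZ in both sorts. In CD45.2+ wt/wt mice it stood at 8.4, 6.8 and 6.8 in plasma cells, at 31.3, 33.2 and 30.6 in the DZ and at 28.7, 36.9 and 39.3 in the LZ. Naive-like cells stood at 30.4, 28.5 and 45.5 and memory-like cells, below these 3 states in every mouse, at 24.5, 25.5 and 19.2. The plasma cell change was -1.61 ± 0.202 (adjusted p = 6.2e-08), and the DZ (-0.18, adjusted p = 0.377), naive-like (-0.15) and memory-like cells (-0.38, adjusted p = 0.106) were not called. In CD45.1+ cells it stood at 4.50 ± 3.70 in plasma cells, 33.0 ± 6.47 in the DZ and 46.7 ± 9.42 in the LZ. It was lower in plasma cells (-2.42 ± 0.285, adjusted p = 8.1e-12), in memory-like cells (-1.18, adjusted p = 2.3e-04) and, near the threshold, in the DZ (-0.47, adjusted p = 0.0388), where 7 alternatives did not call it.

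The CD45.1+ memory-like level of Lrch1 split by group of mice. The 3 mice that also received wt/wt CD45.2+ cells ranged from 5.97 to 10.9 (8.59 ± 2.49) and the 3 that received cpm/cpm cells from 24.6 to 32.2 (29.1 ± 3.99), without overlap, although all of these cells are Dock8 wt/wt. This was noticed after the values were seen and was not tested, and in the LZ and DZ cells of the same mice Lrch1 ranged from 30.6 to 45.0 and from 33.3 to 43.6.

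**Figure D4:**
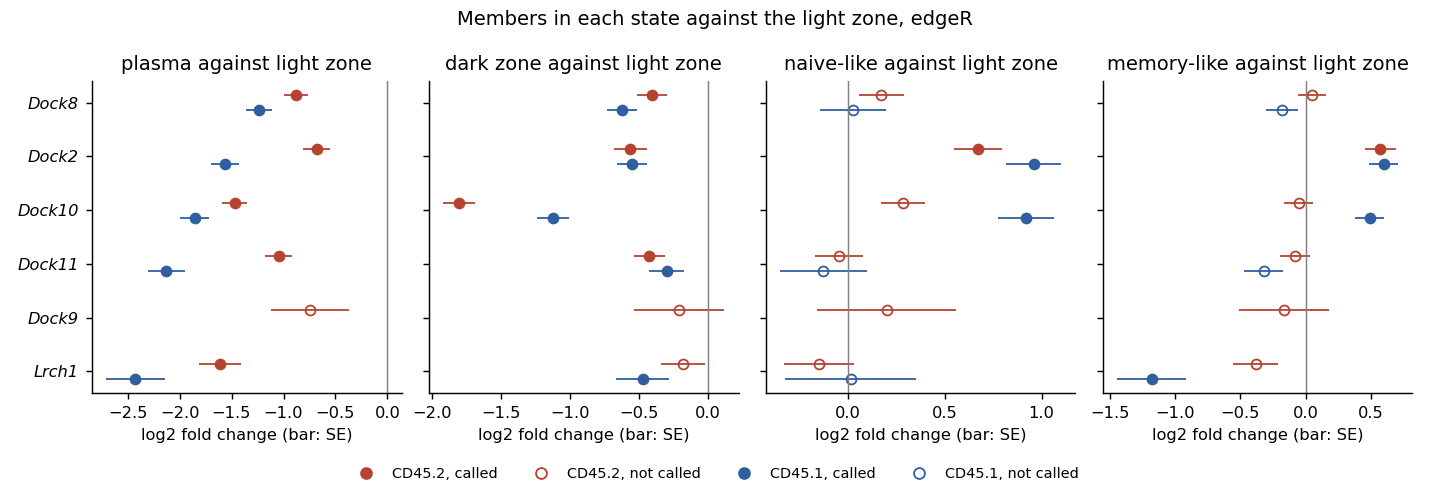
Log2 fold change against the LZ with its standard error for each gene, with 1 panel for each of plasma, DZ, naive-like and memory-like cells, CD45.2+ in red and CD45.1+ in blue, and filled points where edgeR's adjusted p was under 0.05. In plasma cells all points lie below 0 and those of CD45.1+ cells lie below those of CD45.2+ cells, and in naive-like cells Dock2 lies above 0 in both sorts.

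The share of cells with a UMI was compared after thinning cells to 2000 UMIs. Cells with fewer UMIs were left out of the thinned shares and kept in the unthinned ones. In CD45.2+ wt/wt cells Dock8 was found in 10.0% of plasma cells (95% Wilson interval 8.59 to 11.7), 18.1% of DZ cells (16.1 to 20.3), 23.0% of LZ cells (20.2 to 26.1), 26.6% of naive-like cells (23.9 to 29.5) and 20.2% of memory-like cells (18.3 to 22.3). The intervals cover counting error only and leave out the spread between mice. Without thinning, the shares were 29.1%, 62.8%, 49.5%, 53.8% and 48.7% at median depths of 8179, 10615, 5384, 5208 and 6069 UMIs, so that the DZ, the deepest state, came first. In CD45.1+ cells the thinned shares were 7.38%, 17.8%, 25.9%, 27.4% and 18.4%.

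Dock10 had the widest spread of shares. It was found in 9.41% of plasma cells, 13.1% of DZ cells, 33.2% of LZ cells, 40.1% of naive-like cells and 31.0% of memory-like CD45.2+ wt/wt cells after thinning, against 31.7%, 44.1%, 63.0%, 72.3% and 63.2% before. Dock2 was found in 10.5%, 17.9%, 24.97%, 34.8% and 29.6%, Dock11 in 3.74%, 8.49%, 12.4%, 10.9% and 9.77% and Lrch1 in 1.59%, 5.61%, 7.19%, 5.91% and 4.27% of the same states after thinning. Dock9 was found in at most 1.90% of thinned cells in any state, too few to read an order. The few T cells in the libraries, at a median depth of 3308 UMIs, had Dock8 in 19.1% (10.4 to 32.5), Dock2 in 42.6% and Lrch1 in 0 of 47 cells after thinning, which allows a share of cells with a UMI at that depth of up to 6.38% (3 counts), and in 2 of 56 cells before. T cells express Dock8 and Dock2 themselves, so no state known to lack these genes was at hand and the part of free RNA in the shares was not tested.

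The sorts were compared within the 3 wt/wt mice, where CD45.2+ cells carry BCL2.Tg and CD45.1+ cells do not. In LZ and DZ cells together Dock11 was lower in the CD45.2+ cells, at 46.7, 55.1 and 49.5 against 62.7, 81.6 and 70.8 (-0.51 ± 0.0988, adjusted p = 9.8e-04), and Dock2 was lower, at 101.8, 118.5 and 110.6 against 149.6, 134.8 and 134.1 (-0.33 ± 0.0820, adjusted p = 0.0082). Neither gene's sorts overlapped. That is 2 of 6 genes against 6.18% of all genes called lower. Dock8 (-0.13), Dock10 (-0.16), Lrch1 (-0.24) and Dock9 (0.09) were not called. The DZ made up 71.6%, 48.8% and 73.4% of these cells in the CD45.2+ and 49.5%, 29.2% and 52.4% in the CD45.1+ sort. With hashtag values over each cell neither gene was called (Dock11 -0.29, adjusted p = 0.0664, and Dock2 -0.21, adjusted p = 0.0951), and the Dock2 call was also lost without wt/wt mouse 1 (-0.24, adjusted p = 0.197) and with DESeq2 (adjusted p = 0.0591).

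State by state, an alternative added after seeing the data, the calls between sorts differed from state to state. In plasma cells Dock10 (0.82, adjusted p = 4.4e-04), Dock2 (0.67, adjusted p = 0.0015) and Dock11 (0.82, adjusted p = 0.0102) were higher in CD45.2+ cells, against 23.4% of genes called either way. The plasma cells of the sorts differed in makeup, with 226 and 165 of 1450 CD45.2+ cells but 16 and 8 of 521 CD45.1+ cells in clusters 10 and 13. There CD45.2+ Dock2 stood at 82.3 and 79.2 against 50.8 in cluster 3. Within clusters 3, 8 and 11 mean Dock2 was 50.8, 53.5 and 38.9 in CD45.2+ wt/wt cells. In CD45.1+ cells it was 25.6, 35.6 and 24.5 (6, 4 and 5 mice, of both groups). Dock10 was 46.0, 38.1 and 38.8 against 22.8, 20.5 and 22.1, and Dock11 16.4, 24.1 and 16.9 against 12.1, 8.15 and 10.1. Ranges over mice did not overlap for Dock2 and Dock10 in cluster 3 and Dock11 in cluster 8, and overlapped otherwise. The part of makeup in the plasma cell differences was not tested. Dock2, lower in LZ and DZ cells together, was called in neither zone alone (-0.25 in the DZ, adjusted p = 0.207, and -0.14 in the LZ, adjusted p = 0.535). In the DZ Dock11 was lower (-0.48, adjusted p = 0.0211, against 4.89%) and in the LZ it was not called (-0.34, adjusted p = 0.217). Among the rest, Dock10 was higher in the LZ (0.48, adjusted p = 0.0043, against 7.92%), in naive-like cells Dock2 was lower (-0.55, adjusted p = 0.0420, against 1.60%) and in memory-like cells Lrch1 was higher (1.09, adjusted p = 0.0345, against 4.95%). The Lrch1 call rests on the wt/wt mice alone and on few Lrch1 UMIs in their CD45.1+ memory-like cells. Their CD45.1+ memory-like level lay below that of the cpm/cpm mice without overlap, as given above, so the call need not hold for the sorts in general. Dock8 was called in none of the 5 states. The size of the step from the LZ to plasma cells differed between the sorts for Dock2 (0.90 ± 0.216, CD45.2+ minus CD45.1+, adjusted p = 0.0031) and Dock11 (1.12 ± 0.244, adjusted p = 0.0012), against 12.9% of genes, and for Dock8 it did not pass the threshold (0.41 ± 0.204, adjusted p = 0.198). No member was called in the step to the DZ (0% of genes called), to naive-like cells (0.272%) or to memory-like cells (1.42%), where Lrch1 lay nearest (1.61, adjusted p = 0.0578). That Lrch1 value rests on the same wt/wt mice and the same few UMIs.

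Over the 45 sums of wt/wt cells by mouse, sort and state, Dock2 and Dock10 followed each other most closely among the members (Pearson r = 0.948 of log2 levels, across sums that share mice and libraries), then Dock8 and Dock11 (r = 0.923) and Dock8 and Dock2 (r = 0.895). Lrch1 correlated with Dock8 at r = 0.809 and Dock9 with the others at 0.192 to 0.358. Among 2525 genes of sufficient level, the closest to Dock8 were Ikzf3 (r = 0.952), Baz2b and Mef2c (both 0.946), the closest to Dock2 were Gm26740, Cyth4 (both 0.969) and Wdfy4 (0.965), and the closest to Dock10 were Unc93b1 (0.973), Gimap1 (0.966) and Tspan32 (0.965). Sipa1 (0.954), Myo1e (0.945) and Ptpn1 (0.944) came first for Dock11, Bmp2k (0.883), Trim35 (0.878) and Fcer2a (0.876) for Lrch1 and Bzw2 (0.602), Bola2 (0.583) and Szrd1 (0.580) for Dock9. All of these values include the plasma cell sums, in which the mean of every member was lowest, and their part in each r was not tested.

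The rest of the pathway was read from fixed lists. Of the other LRCH genes 2 of 3 were tested, and Lrch4 was lower in plasma cells (-0.70 in CD45.2+ and -1.21 in CD45.1+ cells) and Lrch3 lower in the CD45.2+ DZ (-0.52).

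Of the 17 listed partners and regulators of DOCK proteins 16 were tested in CD45.2+ and 14 in CD45.1+ cells. In plasma cells 9 were lower and 2 higher in CD45.2+ (median -0.59) and 8 lower and 0 higher in CD45.1+ cells (median -1.05), against 23.8% and 30.9% of all genes lower, and without TMM 12 and 14 were lower. Wipf1, which encodes the WASP partner WIP that links DOCK8 to WASP, was lower by -1.25 and -2.66 in the 2 sorts, and Lyn, a kinase of B cell receptor signaling, by -1.22 and -2.58. Lurap1 was lower in memory-like (-3.09) and naive-like CD45.2+ cells (-3.05). The kinase gene Syk was higher in memory-like CD45.2+ cells (0.67) and naive-like CD45.1+ cells (0.75), Lyn in naive-like CD45.2+ (0.62) and Tln1, for the integrin adaptor talin, in memory-like CD45.1+ cells (0.63). In memory-like CD45.2+ cells 4 partners were higher and 2 lower, against 13.2% and 12.1% of all genes. In memory-like CD45.1+ cells 3 were higher and 2 lower, against 17.0% each way. Without TMM 2 were higher and 6 lower in memory-like cells of each sort. In naive-like CD45.2+ cells 2 were higher and 1 lower, against 11.8% and 13.9%. In naive-like CD45.1+ cells 3 were higher and 1 lower, against 9.96% and 12.3%. These naive-like counts were the same without TMM. In the DZ 5 were lower in each sort, with 0 and 1 higher, against 21.1% and 19.1% of all genes lower.

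Of the 14 listed GTPases and effectors 11 were tested. In plasma cells 5 were lower and 1 higher in CD45.2+ and 6 lower and 1 higher in CD45.1+ cells, against the same 23.8% and 30.9%. Rac2, the RAC gene of blood cells, was lower (-1.47 and -2.36), as was Was, for the actin regulator WASP (-1.41 and -1.66), and both stayed lower without TMM. Rac1 was higher (0.36 and 0.76), a direction that turned without TMM (-0.31 and -0.14), so only its rank relative to the other genes is shown. In memory-like cells 6 of 11 were higher and 0 lower in each sort with TMM, against 13.2% and 17.0% of all genes higher, Rhoq (0.50) in CD45.2+ and Arhgdib (0.61) in CD45.1+ cells among them, and 0 and 1 were higher without it. Git2 was higher in naive-like cells of both sorts (0.58 and 0.60), with and without TMM. Between sorts, Syk was higher (0.19, adjusted p = 0.0290) and Was lower (-0.35, adjusted p = 0.0080) in CD45.2+ LZ and DZ cells, and between the groups of mice no listed gene was called.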

How the data were processed

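The deposited files hold whole UMI counts for each gene in each barcode and hashtag counts for each barcode, which the authors made with Cell Ranger 5.0.1 on mm10 (transcriptome 2020-A) without normalization. Cell Ranger, mm10 and Seurat 4.0 are named in the submitters' processing notes and in the study's methods. The authors' hashtag table gave the mouse and group of each hashtag. Because the mRNA came from 3′ ends, levels were not compared between genes.

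From there, singlets were called with HTODemux (quantile 0.99) in Seurat 5.3.0 (under R 4.3.3 with Matrix 1.6.5 and the package data.table, version 1.17.8). The cell filter required fewer than 10% mitochondrial counts, over 100 genes and under 5500 genes. The study describes more CD45.2+ cells after these filters than were kept here. Scrublet, run through scanpy 1.11.5 in Python 3.11.15 on these hashtag singlets, marked 13 of 3204 CD45.1+ and 4 of 6488 CD45.2+ cells. Whether it worked on them was not tested, and removing the highest-scoring 6% was an alternative. Clusters were built on 3000 variable genes and 30 principal components at resolution 0.9 with seed 1, leaving out the members and the listed pathway genes, and named when at least 3 markers of 1 list were among their top 50 genes (pseudocount 10 CPM). A cluster of 218 cells stayed unnamed.

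UMI counts were summed per mouse, sort and state (at least 10 cells) and tested across all genes with edgeR 4.0.16 (limma 3.58.1), quasi-likelihood, TMM and filterByExpr, with Benjamini-Hochberg adjustment over all genes tested and a threshold of 0.05. All 6 members passed the low-count filter in CD45.2+ and 5 in CD45.1+ cells. States and sorts of one mouse share that mouse, so the mouse was a block in comparisons within mice. The pairing comes from the hashtags, and the groups of mice were compared without it. Cells in the samples of 1 sort were processed as 1 library, so p-values measure the spread between mice of 1 run. The 6 members, the lists and the rule on names were chosen with earlier results of these data known. The rule named every member, listed genes called between sorts or groups, the 2 largest changes in each direction per list and sort between states, and the 3 genes closest to each member (log2(CPM + 1), mean of at least 50 CPM). Promoters came from RefSeq tables of GRCm38.p6 and gene positions from GENCODE on GRCm38. Scripts were tested on simulated counts. One further list is not reported here. SciPy 1.17.1, NumPy 2.4.6, pandas 2.3.3 and matplotlib 3.10.9 gave intervals, thinning and figures.

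Alternatives were DESeq2 1.42.0, no TMM, no low-count filter, immunoglobulin genes left out (392 genes), clustering with all genes or at resolutions 0.6 and 1.2, hashtag values over each cell, a 3-fold hashtag rule, under 5% mitochondrial counts with over 500 genes, at least 20 cells, no mouse block and each mouse left out. The fits state by state and of state by sort were added after seeing the data.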

Additional observations from a re-analysis of the deposited data

Results flagged for a closer look

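Among 36 groups of mice examined for a mouse far from the rest, 3 had one, and chance gives about 1 in 20. Dock11 in CD45.1+ memory-like cells of cpm/cpm mouse 1 stood at 34.8, below the other 5 mice. Dock11 in CD45.1+ plasma cells of the same mouse stood at 14.2, above the other 5. Dock9 in CD45.1+ naive-like cells of wt/wt mouse 3 stood at 32.3, while the other 5 mice had 0 UMIs.

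The following 2 changes differed between the sorts by an interaction term in the 3 wt/wt mice. The step from LZ to plasma cells was less negative in CD45.2+ than in CD45.1+ cells for Dock2, by 0.90 on the log2 scale, and for Dock11, by 1.12. Immunoglobulin transcripts took 33.1% of the plasma cell UMIs in the CD45.2+ and 33.6% in the CD45.1+ sort. In the fits of each sort without TMM the median of all genes in this step was -0.69 and -0.90. The sorts also differed in the clusters of their plasma cells, and the means of both genes differed between sorts within clusters 3, 8 and 11, as given above. The part of each of these in the 2 changes was not tested.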

How the results depend on the processing

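The count of 5 members lower in plasma cells held in both sorts when any mouse was left out (5 to 5), and without TMM Dock9 joined in CD45.2+ cells (-1.42, adjusted p = 0.0015). Memory-like CD45.2+ cells, with 1 member called higher, had 2 called with all genes in the clustering, with hashtag values over each cell and with the 3-fold rule, and 3 without TMM, the gain being Lrch1, lower, in each and also Dock11, lower, without TMM. Naive-like CD45.2+ cells, with 1 called, had 4 with hashtag values over each cell, 3 with the 3-fold rule and 2 with the stricter cell filter. They had 2 with no filter on low counts and 1 to 2 when a mouse was left out. Dock10 was gained each time, at 0.49 without wt/wt mouse 1 (adjusted p = 0.0165). Dock9 was gained under both hashtag rules and Dock8 with values over each cell only (0.23, adjusted p = 0.0387). In memory-like CD45.1+ cells, without TMM, Dock10 was no longer called and Dock8 and Dock11 were called lower. The DZ of CD45.1+ cells, with 5 called, had 3 with hashtag values over each cell, 3 with DESeq2 and 3 to 5 when a mouse was left out. Hashtag values over each cell kept 91 CD45.1+ B cells of cpm/cpm mice against 1316 in the main setting. Of wt/wt mice they kept 1404 against 1824, so CD45.1+ and sort comparisons under that rule rest on fewer cells. Between sorts, with 2 called, there were 0 with hashtag values over each cell, 1 with DESeq2 and 1 to 3 when a mouse was left out, Dock10 being gained without wt/wt mouse 2 (-0.38, adjusted p = 0.0053). The causes were not tested.

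One value turned: Lrch1 in naive-like against LZ CD45.1+ cells was 0.01 and became -0.75 at resolution 0.6 (adjusted p = 0.0128), where no cluster was memory-like. Fitted without the mouse as a replicate block, Dock8 in CD45.2+ plasma cells was -0.88 as with the pairing, and no count of members called changed. The plasma cell change of Dock8 ranged from -1.55 to -0.65 in CD45.2+ and from -2.15 to -1.15 in CD45.1+ cells over every alternative.

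Counts of all genes called moved by more than 1.5 times in several comparisons. They ranged from 3811 to 7230 and 3164 to 6132 in plasma cells (CD45.2+, then CD45.1+), 2792 to 5356 and 1584 to 3672 in the DZ, 1407 to 3022 and 800 to 2495 in naive-like cells, 1375 to 3337 and 1341 to 3657 in memory-like cells, 431 to 1517 between sorts, 4 to 40 between the groups in CD45.2+ and 0 to 7 in CD45.1+ cells, and 1 to 22 for the difference between these. Among the planned fold changes of the members, 1070 alternative values were called as in the main fit or stayed uncalled within its standard error. Another 42 stayed uncalled but moved by at least that error, 26 lost a call, 19 gained one and 1 turned. The 202 cpm/cpm CD45.2+ cells limit every comparison of genotypes.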

Other observations

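One cluster of 218 cells carried no name. It was led by Gm42418 and had a median of 1749 UMIs and 5.92% mitochondrial counts. In CD45.2+ wt/wt cells it had Dock8 at 215 ± 43.1, Dock2 at 326 ± 67.9 and Dock10 at 461 ± 77.0 CPM (SD over mice). Dock11 stood at 75.0 ± 23.6, Dock9 at 28.5 ± 9.17 and Lrch1 at 14.2 ± 13.9. The mean of each DOCK gene lay above, and that of Lrch1 below, the means of the LZ, DZ, naive-like and memory-like cells. Over the mice Dock11 ranged from 56.2 to 102 and Lrch1 from 0 to 27.7, so both ranges reached some of those means. These are values of shallow cells with no comparison behind them.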
